A study of Mus musculus with 8 samples.

Results

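Collagen genes were examined in gastrocnemius (GAS) muscle of mice in which MYTHO had been knocked down. The genes were taken by name alone: every symbol on the array made of Col, a type number, the letter a and a chain number. This gave 44 genes among the 22206 probe sets of the array, each with 1 probe set, and the probe set of *Col7a1* also carries the microRNA gene *Mir711*. The study injected the GAS of male C57/Bl6j mice, 10 weeks old, with an adeno-associated virus (AAV) that expressed an sh-RNA against the product of *Mytho* from a U6 promoter. The contralateral leg received AAV with a scramble sh-RNA from the same promoter, so that both groups carried the virus and a hairpin. The U6 promoter is not specific to a cell type, whereas the virus, of serotype 1, is one that favours muscle cells. Total RNA was taken 12 weeks later, at 22 weeks of age, and hybridized to Clariom S Mouse arrays, 4 for MYTHO-KD and 4 for scramble. The labels do not say which arrays came from the legs of 1 mouse, and values of single arrays were not analysed here, so each gene is given by the authors' average and SD of a group on the log2 scale.

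Collagens are proteins of the extracellular matrix whose alpha chains wind into a triple helix, with glycine at regular intervals along each chain. In skeletal muscle, fibrillar collagens form the cables of the connective tissue around fibres, bundles and the whole muscle. Type IV collagen forms the sheet of the basement membrane on each fibre and capillary, type VI links that sheet to the interstitium, and fibril-associated collagens with interrupted triple helices (FACIT) sit on the surface of fibrils. Fibroblasts and fibro-adipogenic progenitors, the stromal cells between the fibres, make most of the interstitial chains. In whole-muscle RNA, a larger share of such cells and more collagen RNA per cell cannot be told apart.

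The signal of *D230025D16Rik*, the table's symbol for *Mytho*, averaged 10.02 in scramble and 7.71 in MYTHO-KD muscles (log2), which left 20.2% of the scramble signal (adjusted p = 0.0138, limma). Averages over all probe sets ran from 3.18 to 19.93 on the log2 scale, and the median difference between the groups was -0.01. The muscle genes *Acta1* (skeletal actin) and *Myh4* (fast myosin heavy chain) both stood at 19.93 in both groups, the top of the scale. Their SDs were 0.00 in both groups, so these probe sets could hardly show a difference. All 44 collagen genes were marked as expressed in both groups, but so were 21222 of all 22206 probe sets, cartilage collagens included, so this mark separates little. The signals of 13 collagen genes lay under the 30th percentile of all probe sets (5.71, log2).

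Of the 44 collagen genes, 4 had a higher signal in MYTHO-KD with an unadjusted p under 0.05 by the moderated limma fit: *Col3a1*, *Col5a1*, *Col6a3* and *Col15a1*. That is 9.09% of the collagen genes, against 6.48% of all probe sets. None was lower at that threshold, against 5.52% of all probe sets. The share of collagen genes called is thus near that of the whole array. Under the threshold of the study's methods, a change of at least 2-fold and an unadjusted p under 0.05, *Col3a1* was the 1 collagen gene called higher and none was called lower, against 0.86% and 0.257% of all probe sets. After Benjamini-Hochberg adjustment of the limma p-values no collagen gene stayed under 0.05, as 0.275% of all probe sets did. The averages of 27 collagen genes were higher and those of 17 lower in MYTHO-KD, and their median log2 difference was 0.08, with a range from -0.51 to 1.43.

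For 37 of the 44 collagen genes the 95% confidence interval of the difference lay within 2-fold in both directions. It reached past 2-fold for *Col1a1*, *Col1a2*, *Col3a1*, *Col5a2*, *Col6a3* and *Col10a1* upward and for *Col23a1* downward. The interval lay within 1.5-fold for 16 genes. The standard error of the log2 difference ran from 0.148 for *Col4a5* to 0.513 for *Col1a1*.

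**Figure D1:**
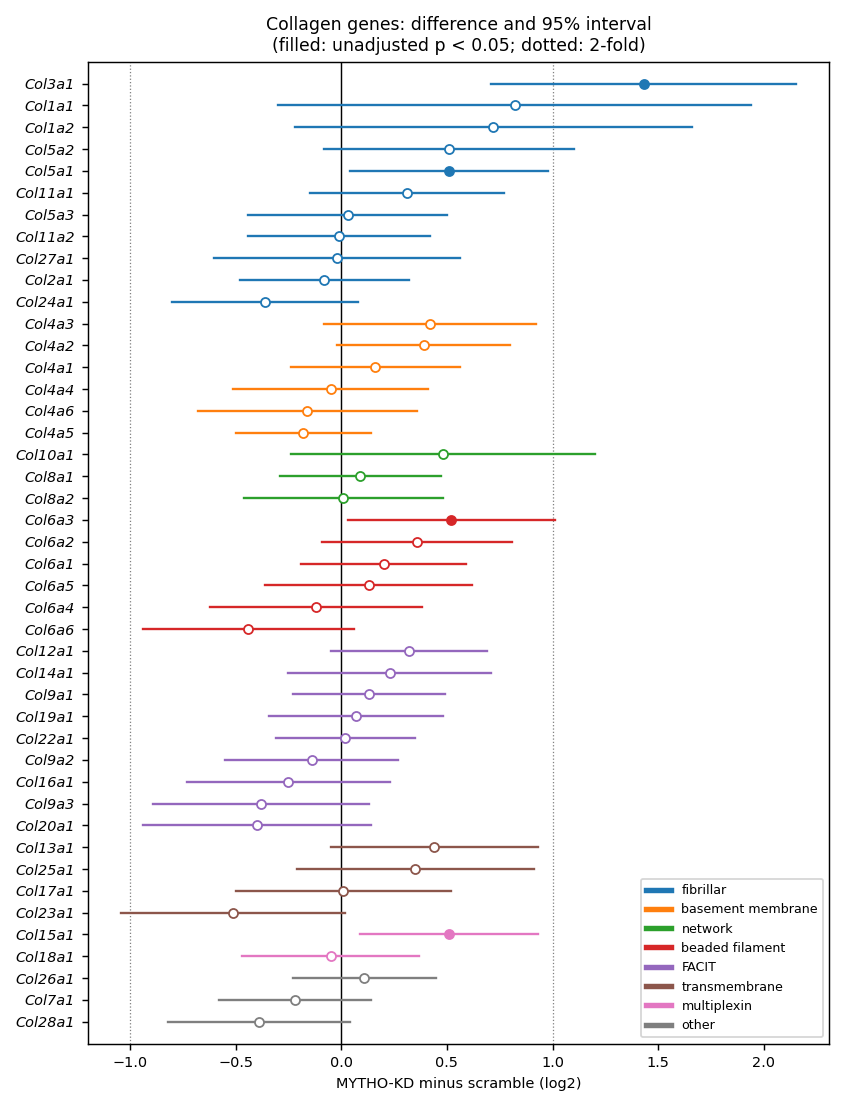
Difference between MYTHO-KD and scramble (log2, x axis) for each of the 44 collagen genes, grouped and coloured by collagen type, with the 95% confidence interval of limma's moderated test; filled points have an unadjusted p under 0.05 and dotted lines mark 2-fold. *Col3a1* lies farthest to the right at 1.43 and *Col23a1* farthest to the left at -0.51.

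The fibrillar collagens had a median log2 difference of 0.31 over 11 genes, with 7 averages higher and 4 lower in MYTHO-KD. The 5 highest differences were those of *Col3a1*, *Col1a1*, *Col1a2*, *Col5a1* and *Col5a2*, chains of the fibrils of muscle connective tissue. Of these, *Col3a1* and *Col5a1* passed an unadjusted p of 0.05. They make up 18.2% of the fibrillar genes, against 6.48% of all probe sets called higher. *Col3a1*, the only chain of type III collagen, lies on the plus strand of chromosome 1 from 45311538 to 45349706 (mm10). Its average was 9.76 in scramble (SD 0.52) and 11.19 in MYTHO-KD (SD 0.65). The intervals of 1 SD around these averages did not meet, and the MYTHO-KD signal was 2.69-fold that of scramble. The log2 difference was 1.43 (standard error 0.328, 95% confidence interval 0.71 to 2.15, unadjusted p = 0.000958). After adjustment over all probe sets its p was 0.102 in limma's moderated test. Over the alternatives of that test the adjusted p ran from 0.0454, with a trend of the variance on signal and robust fitting, to 0.461 with unequal variances.

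The chains of type I collagen, the main fibril collagen, were higher on average but spread widely. *Col1a1* averaged 8.67 in scramble (SD 0.62) and 9.49 in MYTHO-KD (SD 1.24), and the latter was the largest SD of any collagen gene in either group. Its log2 difference of 0.82 had an interval from -0.30 to 1.94 (unadjusted p = 0.136). *Col1a2*, the partner chain, averaged 10.24 in scramble (SD 0.85) and 10.96 in MYTHO-KD (SD 0.76), with an interval of the difference from -0.22 to 1.66 (unadjusted p = 0.12). For both chains the intervals of 1 SD overlapped between the groups, and the confidence intervals reach from a slight decrease to more than 3-fold higher. Both intervals include the difference of *Col3a1*.

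Type V collagen sits inside type I fibrils and limits their width. *Col5a1*, on the plus strand of chromosome 2 from 27886425 to 28039514, averaged 4.92 in scramble (SD 0.26) and 5.43 in MYTHO-KD (SD 0.37), a log2 difference of 0.51 (unadjusted p = 0.0348, adjusted p = 0.373, limma). Its signal is dim, and without moderation of the variances its unadjusted p was 0.0649. *Col5a2* averaged 6.16 (SD 0.50) and 6.67 (SD 0.41), the same difference of 0.51, with a wider interval from -0.08 to 1.10. The third chain, *Col5a3*, differed by 0.03 (interval -0.44 to 0.50).

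The other fibrillar chains belong mainly to cartilage or are minor. *Col11a1*, a chain of the cartilage fibril, differed by 0.31 (interval -0.15 to 0.77). *Col2a1*, the main cartilage collagen, differed by -0.08, *Col11a2* by -0.01 and *Col27a1* by -0.02, all with intervals within 2-fold. *Col24a1* had the lowest difference among the fibrillar chains, -0.36 with an interval from -0.80 to 0.08 and SDs of 0.37 in scramble and 0.15 in MYTHO-KD.

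**Figure D2:**
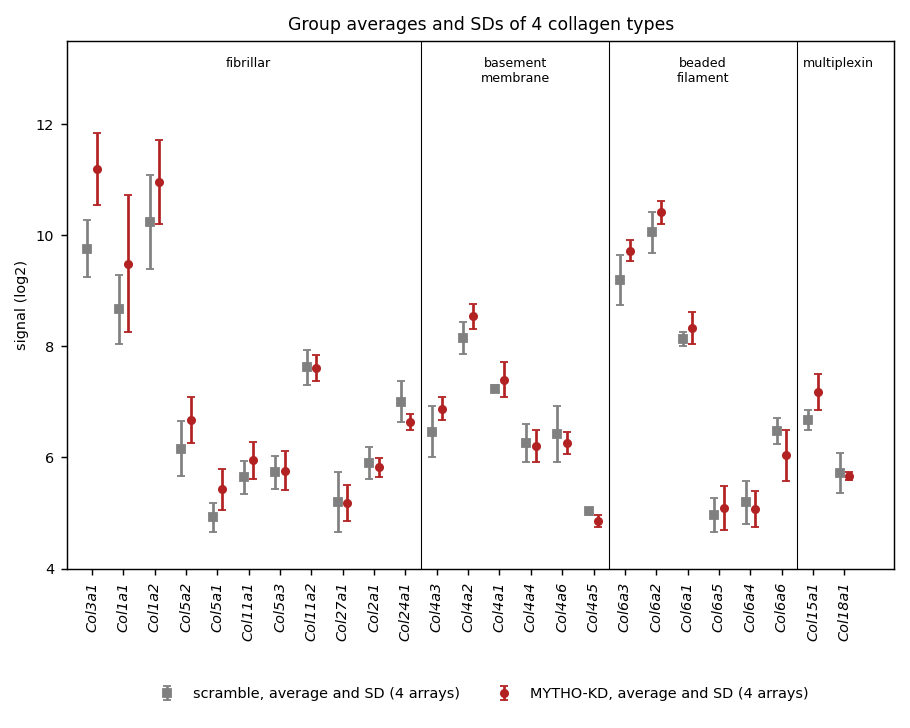
Authors' group averages of the log2 signal (y axis) with SDs for scramble (grey squares) and MYTHO-KD (red circles), 4 arrays each, for the fibrillar, basement membrane, beaded filament and multiplexin collagens, each type ordered by its difference. The bars of *Col3a1* stand apart, those of *Col1a1* and *Col1a2* overlap, and levels of different probe sets are not comparable with each other.

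In the basement membrane collagens, 3 averages were higher and 3 lower, with a median log2 difference of 0.055, and none of the 6 genes passed an unadjusted p of 0.05. All 6 confidence intervals lay within 2-fold. *Col4a1* and *Col4a2* encode the chains of the network found in nearly every basement membrane. *Col4a1* averaged 7.24 in scramble (SD 0.06) and 7.40 in MYTHO-KD (SD 0.32), a difference of 0.16 (interval -0.24 to 0.56). *Col4a2* averaged 8.15 (SD 0.28) and 8.54 (SD 0.22), a difference of 0.39 (interval -0.02 to 0.80, unadjusted p = 0.0624). The other chains have a more restricted distribution, in kidney, lung and eye among others. *Col4a3* had the highest difference of the type at 0.42 (interval -0.08 to 0.92) and *Col4a4* differed by -0.05. *Col4a6* differed by -0.16 and *Col4a5* by -0.18, the lowest of the type. *Col4a5* averaged 5.03 in scramble and 4.85 in MYTHO-KD with SDs of only 0.06 and 0.11, so its call depended on the variance model. Its unadjusted p was 0.247 with moderation and 0.0283 without.

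The type VI chains form beaded filaments between the basement membrane and the interstitium. Of the 6 genes, 1 was called higher (16.7%), against 6.48% of all probe sets. The classical chains *Col6a1*, *Col6a2* and *Col6a3* all had higher averages in MYTHO-KD. *Col6a3*, on the minus strand of chromosome 1 from 90765923 to 90843971, averaged 9.20 in scramble (SD 0.45) and 9.72 in MYTHO-KD (SD 0.19), a log2 difference of 0.52 (unadjusted p = 0.0388, adjusted p = 0.385, limma). Without moderation its unadjusted p was 0.0773. *Col6a2* averaged 10.05 and 10.41, a difference of 0.36 (interval -0.09 to 0.81), and *Col6a1* averaged 8.13 and 8.33, a difference of 0.20 (interval -0.19 to 0.59). The later-found chains, which can take the place of the third classical chain, were not all higher on average: *Col6a5* differed by 0.13, *Col6a4* by -0.12 and *Col6a6* by -0.44. *Col6a6* averaged 6.48 in scramble (SD 0.23) and 6.04 in MYTHO-KD (SD 0.46), with an interval from -0.94 to 0.06. The difference between these chains and the classical ones was not tested.

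In the network-forming types VIII and X, the 3 averages were higher by between 0.01 and 0.48 and none passed the test. *Col10a1*, the collagen of hypertrophic cartilage, averaged 4.83 in scramble (SD 0.69) and 5.31 in MYTHO-KD (SD 0.48), and its interval from -0.24 to 1.20 was wide. *Col8a1* and *Col8a2*, chains made by vessel walls and by the membranes of the eye, differed by 0.09 and 0.01.

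The FACIT collagens showed no call in either direction, and all 9 intervals lay within 2-fold. Their median log2 difference was 0.02, with 5 averages higher and 4 lower. Without the dim probe sets, which removes *Col12a1* and *Col14a1* among others, the median was -0.195. *Col12a1*, found on fibrils of tendon and dense connective tissue, had the highest difference, from 5.46 in scramble (SD 0.18) to 5.78 in MYTHO-KD (SD 0.20), with an interval from -0.05 to 0.69. *Col14a1*, a related fibril-surface collagen, differed by 0.23. *Col22a1*, which lies at the muscle-tendon junction, averaged 7.79 and 7.81 with SDs of 0.12 and 0.11. Its difference of 0.02 (interval -0.31 to 0.35) is one of the most closely bounded among the collagen genes. At the lower end *Col20a1* differed by -0.40 (interval -0.94 to 0.14), *Col9a3* by -0.38 and *Col16a1* by -0.25. *Col9a1* and *Col9a2*, cartilage chains, differed by 0.13 and -0.14, and *Col19a1* by 0.07.

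The remaining types hold 2 multiplexin, 4 transmembrane and 3 other genes. Among these *Col15a1* was the 1 gene called, where 6.48% of all probe sets were called higher. The product of *Col15a1*, a multiplexin of the outer face of basement membranes of fibres and capillaries, is encoded on the plus strand of chromosome 4 from 47208012 to 47313167. *Col15a1* averaged 6.67 in scramble (SD 0.18) and 7.18 in MYTHO-KD (SD 0.32), and the intervals of 1 SD just failed to meet. The log2 difference was 0.51 (interval 0.09 to 0.93, unadjusted p = 0.0213, adjusted p = 0.322, limma), and the unadjusted p stayed under 0.05 in all alternatives run. The other multiplexin, *Col18a1*, the precursor of endostatin, averaged 5.72 and 5.67, a difference of -0.05 (interval -0.47 to 0.37).

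Of the transmembrane collagens, *Col13a1*, which has a part in the neuromuscular junction, averaged 7.27 in scramble (SD 0.37) and 7.71 in MYTHO-KD (SD 0.33). Its difference of 0.44 had an interval from -0.05 to 0.93 (unadjusted p = 0.0755). *Col25a1*, needed for the innervation of developing muscle, differed by 0.35 (interval -0.21 to 0.91) and *Col17a1*, the hemidesmosome collagen of skin, by 0.01. *Col23a1* had the lowest difference of all collagen genes, from 7.38 in scramble (SD 0.33) to 6.87 in MYTHO-KD (SD 0.45), with an interval from -1.04 to 0.02 (unadjusted p = 0.0585). None of these passed the test. Outside the main types, *Col28a1*, which is made around peripheral nerve, averaged 7.85 and 7.46, a difference of -0.39 (interval -0.82 to 0.04). *Col7a1*, of the anchoring fibrils, differed by -0.22 and *Col26a1* by 0.11.

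Collagen genes often lie side by side, and 8 pairs on the array had no other RefSeq protein-coding gene between them. *Col3a1* and *Col5a2* face each other tail to tail on chromosome 1 with 24614 bases between them, and differed by 1.43 and 0.51. The type IV chains lie in head-to-head pairs with starts close together. In the pair of *Col4a1* and *Col4a2* on chromosome 8 the gene models overlap by a few bases, and the differences were 0.16 and 0.39. *Col4a3* and *Col4a4* are 71 bases apart on chromosome 1 and differed in opposite directions on average, by 0.42 and -0.05. *Col4a5* and *Col4a6* on chromosome X are 1308 bases apart and differed by -0.18 and -0.16. For the type VI chains on chromosome 9, *Col6a6*, *Col6a5* and *Col6a4* follow each other on 1 strand with differences of -0.44, 0.13 and -0.12. *Col6a2* and *Col6a1* on chromosome 10 differed by 0.36 and 0.20, and *Col9a1* and *Col19a1* on chromosome 1 by 0.13 and 0.07. No pair had both genes called.

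The sequence before the start of transcription was compared for the 4 collagen genes called higher, to show whether they share the common promoter motifs. RefSeq promoter sequences (GRCm38.p6) were found for 35 of the 44 genes. The 250 bases before the start follow, read along the gene's strand, with matches on either strand to the CCAAT box, the TATA box (TATAAA) and the GC box (GGGCGG) in capitals.
*Col3a1* (chr1:45311288-45311537, plus strand): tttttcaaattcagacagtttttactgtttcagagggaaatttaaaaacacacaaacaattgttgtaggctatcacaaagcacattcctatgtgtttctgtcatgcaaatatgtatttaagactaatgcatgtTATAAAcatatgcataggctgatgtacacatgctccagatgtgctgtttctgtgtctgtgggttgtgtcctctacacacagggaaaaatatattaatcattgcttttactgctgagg
*Col5a1* (chr2:27886175-27886424, plus strand): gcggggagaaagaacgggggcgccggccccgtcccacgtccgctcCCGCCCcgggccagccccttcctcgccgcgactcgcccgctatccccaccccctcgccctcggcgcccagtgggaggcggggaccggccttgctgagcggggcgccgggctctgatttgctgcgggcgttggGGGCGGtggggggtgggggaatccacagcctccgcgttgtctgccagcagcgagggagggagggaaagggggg
*Col6a3* (chr1:90843972-90844221, minus strand): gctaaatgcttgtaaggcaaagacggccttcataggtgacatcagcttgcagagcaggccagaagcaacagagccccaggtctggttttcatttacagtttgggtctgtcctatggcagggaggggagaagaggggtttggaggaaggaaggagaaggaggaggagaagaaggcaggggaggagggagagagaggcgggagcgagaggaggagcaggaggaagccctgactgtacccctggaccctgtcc
*Col15a1* (chr4:47207762-47208011, plus strand): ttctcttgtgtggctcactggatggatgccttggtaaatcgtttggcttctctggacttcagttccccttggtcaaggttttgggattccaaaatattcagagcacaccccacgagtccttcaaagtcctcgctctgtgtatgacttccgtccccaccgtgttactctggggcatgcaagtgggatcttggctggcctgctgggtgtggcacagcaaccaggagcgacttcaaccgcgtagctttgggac

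*Col3a1* has 1 match, TATAAA, whose first base lies 117 bases before the start. *Col5a1* has 2 matches to GGGCGG, at 205 and 73 bases before the start, and *Col6a3* and *Col15a1* have none of the motifs, so no motif of the 3 is found in all 4 genes. Their base composition also differed, with 35.2% G and C in *Col3a1*, 53.6% in *Col15a1*, 57.2% in *Col6a3* and 76.4% in *Col5a1*. Among the 35 collagen promoters CCAAT was found in 12 (34.3%) and TATAAA in 5 (14.3%), against 33.8% and 12.4% of all 32851 promoters of this length. GGGCGG was found in 21 (60%) of the collagen promoters and in 32.7% of all promoters, with a median content of G and C of 59.2% and 52.4%. For each collagen gene 1 start was kept, the nearest to the start on the array, which for *Col25a1* was 49344 bases away. All promoters of the reference were counted for the other share, so the sets are unlike. A match is only a run of letters, and none was tested for binding.

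Collagen chains are worked on by a set of enzymes and chaperones before and after secretion. This apparatus was described from a list of 56 genes, chosen with earlier results of these data known. Of these, 16 (28.6%) were higher in MYTHO-KD at an unadjusted p under 0.05 and none was lower, against 6.48% and 5.52% of all probe sets. The averages of 46 were higher, with a median log2 difference of 0.36, against -0.01 over all probe sets and 0.08 over the collagen genes. At 2-fold with an unadjusted p under 0.05, 5 (8.93%) were higher, against 0.86% of all probe sets. The lowest adjusted p of the list was 0.109 (limma), so that none passed after adjustment.

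The lysyl hydroxylases, which prepare the lysines of collagen for sugar chains and crosslinks, were all called. With the collagen galactosyltransferases they make a group of 5 genes, of which 3 (60%) were called higher, against 6.48% of all probe sets. *Plod1* averaged 8.88 in scramble (SD 0.13) and 9.67 in MYTHO-KD (SD 0.35), a log2 difference of 0.79 (adjusted p = 0.128, limma). *Plod3*, on a probe set shared with *Mir702*, differed by 0.75 and *Plod2* by 0.70. The SDs of *Plod2* were 0.19 in scramble and 0.65 in MYTHO-KD (unadjusted p = 0.0278, adjusted p = 0.344, limma). The collagen galactosyltransferases *Colgalt1* and *Colgalt2* differed by 0.33 and 0.43 and did not pass. Among the 10 genes of prolyl hydroxylation, which stabilizes the triple helix, only *Crtap*, part of the prolyl 3-hydroxylation complex, was called. That is 10% of the group, near the 6.48% of all probe sets. *Crtap* averaged 9.58 in scramble (SD 0.23) and 10.34 in MYTHO-KD (SD 0.27), a difference of 0.76 (adjusted p = 0.134, limma). The prolyl 4-hydroxylase subunits *P4ha1*, *P4ha2* and *P4hb* differed by 0.14, 0.25 and 0.34, none past the test.

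In the endoplasmic reticulum, *Serpinh1*, the collagen chaperone HSP47, averaged 8.89 in scramble (SD 0.22) and 9.53 in MYTHO-KD (SD 0.63), a difference of 0.64 (unadjusted p = 0.0392). *Sec24d*, a coat protein of the vesicles that carry procollagen, averaged 6.38 and 7.37, a difference of 0.99 (unadjusted p = 0.00555). *Tmem38b*, an ion channel of the reticulum needed for collagen assembly in bone, differed by 0.71 (unadjusted p = 0.0107). The cargo receptors *Mia3* and *Mia2*, which load procollagen, differed by -0.05 and 0.10.

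After secretion the propeptides are cut off and the molecules are crosslinked. *Pcolce*, an enhancer of the procollagen C-proteinase, averaged 7.68 in scramble (SD 0.39) and 8.83 in MYTHO-KD (SD 0.54), or 2.22-fold higher (unadjusted p = 0.00134). The proteinase itself, *Bmp1*, differed by 0.46 with an interval from -0.01 to 0.93. The lysyl oxidase-like enzymes *Loxl1* and *Loxl2* were 2.41-fold and 2.08-fold higher, and *Loxl2* shares its probe set with *Mir6950*. *Loxl1* averaged 7.18 (SD 0.51) and 8.45 (SD 0.53), and *Loxl2* averaged 5.45 (SD 0.36) and 6.51 (SD 0.50). These crosslinking genes had the lowest unadjusted p of their group, 0.00112 and 0.00161. *Lox* differed by 0.59, with an interval from -0.36 to 1.54 and SDs of 0.72 and 0.90.

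Among genes that bind or take up collagen, *Mrc2*, the endocytic receptor of collagen fragments, averaged 7.30 in scramble (SD 0.38) and 8.30 in MYTHO-KD (SD 0.36), 2-fold higher (unadjusted p = 0.0011). *Antxr1*, a cell-surface receptor of matrix collagens, differed by 0.84, and *Adgrg1*, a receptor of type III collagen, by 0.65 (unadjusted p = 0.0294 and 0.03). *Itgb1*, the shared beta chain of the collagen-binding integrins, differed by 0.40 (unadjusted p = 0.0262). The alpha chains *Itga1*, *Itga2* and *Itga11* differed by 0.36, 0.54 and 0.43 without passing the test, and the discoidin receptors *Ddr2* and *Ddr1* by 0.42 and -0.01. Of the genes of collagen breakdown, *Mmp2*, a gelatinase, averaged 9.90 in scramble (SD 0.58) and 11.07 in MYTHO-KD (SD 0.67), or 2.25-fold higher (unadjusted p = 0.00549). *Pepd*, the dipeptidase that frees proline from collagen fragments, differed by 0.50 (unadjusted p = 0.0344). The collagenases *Mmp8* and *Mmp13* differed by -0.25 and 0.36, neither past the test.

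**Figure D3:**
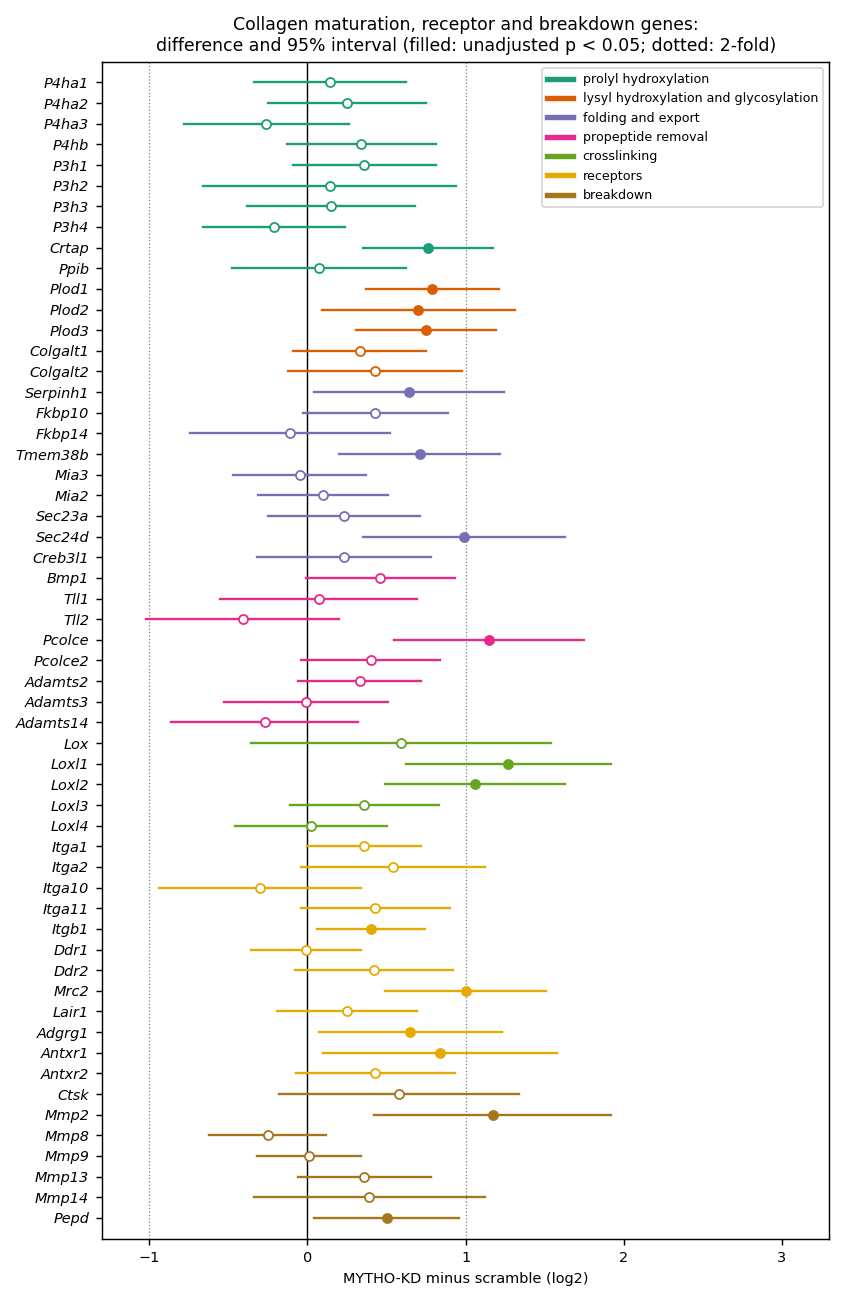
Difference between MYTHO-KD and scramble (log2, x axis) for the 56 genes of collagen maturation, receptors and breakdown, coloured by step, with the 95% confidence interval of limma's moderated test; filled points have an unadjusted p under 0.05 and dotted lines mark 2-fold. All 16 filled points lie to the right of 0, between 0.40 and 1.27.

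Markers of the cell types in the muscle were read beside the collagen genes, from lists also chosen with earlier results of these data known. Of 9 fibroblast and fibro-adipogenic progenitor markers, all averages were higher in MYTHO-KD and 5 passed an unadjusted p of 0.05, against 46.9% and 6.48% of all probe sets. Their mean signal was 10.23 in scramble and 10.83 in MYTHO-KD (log2), and all 9 were marked as expressed in both groups. *Lum*, a proteoglycan of collagen fibrils, differed by 1.49 (adjusted p = 0.0443, limma) and *Pi16*, a marker of a progenitor subset, by 1.14 (adjusted p = 0.126), while the defining receptor *Pdgfra* differed by 0.18 (interval -0.22 to 0.58). Of 5 tenocyte markers 4 averages were higher and 1 passed, with a mean signal of 8.60 and 9.50. *Thbs4* differed by 1.90 (adjusted p = 0.263, limma) and *Fmod* by 1.40, and the SDs of *Fmod* were 1.18 in scramble and 2.11 in MYTHO-KD. *Col1a1* likewise had its larger SD in MYTHO-KD, and whether the same arrays were high in both genes could not be seen from averages. The defining tendon factor *Scx* differed by 0.24 and *Mkx* by -0.04.

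All 6 macrophage marker averages were higher and 4 passed, where 6.48% of all probe sets were called higher, with a mean signal of 7.09 in scramble and 8.40 in MYTHO-KD. *Cd68* differed by 2.53 and *Lyz2* by 1.94 (adjusted p = 0.0182 and 0.0277, limma). The defining marker *Adgre1* had the smallest difference of the list, 0.48 (interval -0.02 to 0.98, adjusted p = 0.432, limma), and did not pass. All 6 endothelial averages were higher too, with a mean of 9.84 and 10.26, and *Kdr*, the receptor of vascular endothelial growth factor, was the 1 of the 6 that passed (difference 0.75, adjusted p = 0.19, limma), beside *Tek* at 0.53, against the same 6.48% of all probe sets. Pericyte and smooth muscle markers had a median difference of 0.115 with none past the test. Of these 6 genes 4 averages were higher, with *Cspg4* at 0.27 and *Myh11* at 0.25, and 2 lower, *Acta2* at -0.13 and *Notch3* at -0.15. Schwann cell markers had a median of -0.17, with *Mbp* at -0.42 and *Sox10* at -0.30, and satellite cell markers one of 0.035, with *Pax7* at 0.18 and *Cdh15* at 0.07. Adipocyte markers had a median of -0.475 with none past the test, and 3 of the 4 averages were lower: *Cfd* at -0.78, *Adipoq* at -0.69 with SDs above 2 in both groups, and *Plin1* at -0.26. *Fabp4* differed by 0.04 with SDs of 0.48 in scramble and 0.49 in MYTHO-KD. Of the muscle fibre markers *Myh1* was higher by 0.59 (unadjusted p = 0.00873) and *Ckm* differed by -0.05. The part of these cells in the differences of the collagen genes was not tested.

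**Figure D4:**
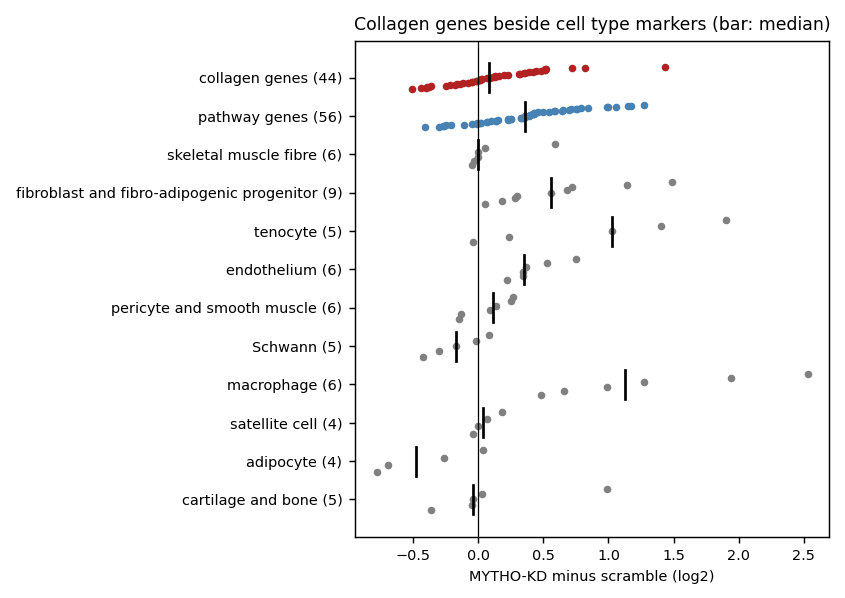
Difference between MYTHO-KD and scramble (log2, x axis) for each collagen gene (red), each gene of collagen maturation, receptors and breakdown (blue) and each cell type marker (grey), with the number of genes in brackets and the median of each list as a bar. The medians are 0.08 for the collagen genes and 0.36 for the maturation, receptor and breakdown genes.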

How the data were processed

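Total RNA of GAS muscle was measured on Clariom S Mouse arrays, 4 for AAV sh-RNA MYTHO and 4 for AAV sh-RNA scramble. Signals were normalized by the authors in Transcriptome Analysis Console by SST-RMA (the submitters' processing notes name RMA and Affymetrix Expression Console) and deposited 1 average and 1 SD per group on the log2 scale for each of 22206 probe sets, with the annotation of mm10. The table also holds the authors' own fold changes, p-values and false discovery rates, which were not used, and 0 columns of single arrays were left aside. The planned description of the collagen proteins was not made.

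Here the log2 difference is the MYTHO-KD average minus that of scramble. It was tested in limma 3.58.1 (R 4.3.3) on all probe sets from the pooled variances with 6 residual degrees of freedom. The variances were moderated by squeezeVar (prior SD 0.284, 5.85 prior degrees of freedom). Tests were two-sided, with p-values adjusted after Benjamini and Hochberg across the whole table. The procedure was checked on simulated arrays that were independent and averaged as plain means. That check does not cover paired legs or averages of another kind. Whether the averages are plain means is not stated, and the test assumes that they are. The p-values and intervals rest on the spread between arrays within each group. They treat the 8 arrays as independent, although the study injected the scramble virus into the contralateral leg. Spread between mice and spread between legs are therefore not separated. Genes with an unadjusted p under 0.05, the extremes of each type, types IV and VI and neighbouring pairs (at most 300000 bases apart) were named first, and of each marker list the most changed. The members, types and lists were chosen with earlier results of these data known.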

Additional observations from a re-analysis of the deposited data

How the results depend on the processing

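No paired analysis was possible because the table analysed holds group averages and SDs, not single arrays. For the same reason no replicate could be left out. The precision is that of 4 arrays per group. Without moderation and with unequal variances, 2 collagen genes were higher at an unadjusted p under 0.05 (from 4, with *Col3a1* and *Col15a1* remaining). In either setting 1 was lower (*Col4a5*, from 0). The share of all probe sets called was not counted in these or the other alternative settings. The trend with robust fitting gave 1 collagen gene with an adjusted p under 0.05 (*Col3a1*, from 0). Leaving out dim probe sets made the multiplexin median 0.51, because *Col18a1* falls under the limit, and turned the FACIT median from 0.02 to -0.195. It also removed *Col5a1*, which is dim. In that setting 3 of the 31 collagen genes left were called higher. Restricting the table to probe sets expressed in both groups or to symbols named alone, or taking the lowest probe set of a gene, kept the same 4 collagen genes called, but all 44 are expressed in both groups and each has 1 probe set, so these settings could hardly change the calls. A limit of 1.5-fold and one of 0.1 on the adjusted p gave the same counts of collagen genes as 2-fold and 0.05. The number of maturation, receptor and breakdown genes called higher ran from 12, without moderation or with unequal variances, to 17 without dim probe sets. The setting without dim probe sets tests fewer than the 56 genes of the list.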

Other observations

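*Sox9*, a transcription factor of cartilage and tendon, was among the markers of cartilage and bone. It averaged 7.97 in scramble (SD 0.16) and 8.96 in MYTHO-KD (SD 0.46), a log2 difference of 0.99 (adjusted p = 0.0991, limma). The other markers of that list did not pass an unadjusted p of 0.05, with *Acan* at 0.03, *Matn1* at -0.36, *Sp7* at -0.04 and *Bglap* at -0.05. Cartilage collagens did not pass either, with *Col2a1* at -0.08, *Col9a1* at 0.13, *Col9a2* at -0.14, *Col9a3* at -0.38, *Col10a1* at 0.48, *Col11a1* at 0.31 and *Col11a2* at -0.01.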
